A study of Mus musculus with 27 samples.

Results

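Regions of methylated histone H3 lysine 4 (H3K4) that lay beside, but not over, a transcription start site (TSS) were examined in mouse hearts with and without myocardial *Kmt2d*. Members were selected on the position and width of the merged peaks: a width of at least 1000 bp and under 8000 bp, no annotated TSS inside, and at least 1 annotated TSS within 5 kb. Of 358833 merged regions, 80022 had this width and 11134 of those met all criteria, with 5390 upstream and 5744 downstream of the nearest TSS. They made up 3.1% of all merged regions and 13.9% of those in the width range. The readout was membership of a flanking region, by identical coordinates, in the lists of regions that the authors called lower in mutant hearts, which are separate lists for H3K4me1 and H3K4me2. Another 15198 regions of the same width held a TSS and 53690 had none within 5 kb, and these served for comparison.

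The study compared hearts at embryonic day (E) 11.5 from C57BL/6 mice by sequencing of chromatin immunoprecipitated (ChIP-Seq) with antibodies to the 3 states of H3K4 methylation, H3K4me1, H3K4me2 and H3K4me3, with 3 pools of 30 hearts for each genotype. Control hearts were *Tnnt2::Cre;Kmt2d fl/+;mTmG/+* and mutant hearts were *Tnnt2::Cre;Kmt2d fl/fl;mTmG/+*, so both carried Cre, the mTmG reporter and at least 1 floxed allele of *Kmt2d*, and control myocardium kept 1 intact allele. *Tnnt2::Cre* acts in the myocardium, whereas whole hearts were collected, so endocardial, mesenchymal and blood cells that kept *Kmt2d* contributed to every pool. Fewer cells of a type and less of a mark per cell cannot be told apart in such pools. As a check of the tissue, all 10 of 10 defining cardiomyocyte genes had a TSS inside a merged region, against 3 of 10 liver genes and 8 of 10 neuronal genes, and developmental genes can carry H3K4 methylation without being expressed.

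KMT2D is a methyltransferase of H3K4 that acts mainly at enhancers, where it deposits mono- and dimethylation. Around an active promoter the marks are layered: H3K4me3 lies over the TSS, H3K4me2 extends to either side, and H3K4me1 forms the outer shoulders and covers enhancers. CpG islands are stretches in which the CpG dinucleotide, depleted from most of the mammalian genome, has been retained. They coincide with many promoters and attract their own H3K4 methyltransferases through CpG-binding domains.

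The deposited lists hold a chromosome, a start and an end for each region and no value for any library. Every share below is therefore a share of regions that the authors listed as decreased, given with a 95% Wilson interval, and differences between shares are in percentage points with a 95% Newcombe interval. Both cover counting error only and treat regions as independent, and neither includes the spread between pools. Depth is unknown, and a region outside a list may have changed without being called. The merged list joins peaks of all 3 marks, so it does not tell which mark a region carried.

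The label promoter-flanking rests on the annotation, and the data bore it out for some of the members. The nearest TSS lay inside another merged region for 5146 members and in no merged region for 5988 (53.8%). For 5275 members (47.4%) no TSS within 5 kb lay in any merged region, so these had an annotated but unmarked TSS nearby. The members were beside 9758 different TSS of 7576 gene symbols. The nearest TSS was of a protein-coding gene for 8046 members and of another gene for 3088. The latter included 1212 members beside small RNA genes, 1133 beside long non-coding genes and 733 beside pseudogenes. They had a median width of 1700 bp (quartiles 1260 and 2520) and lay a median of 2660 bp from the TSS (1460 and 3780). Where the TSS was marked, its region had a median width of 3060 bp and the median gap between it and the flanking region was 1500 bp.

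To show the kind of sequence behind the calls, the middle 300 bases of 6 flanking regions are printed on the plus strand of NCBIM37 (mm9), with every CpG dinucleotide in capitals. The first 3 had decreased H3K4me2, the next 2 had decreased H3K4me1, and the last had both. *Sox4* was chosen after its values were seen.
Sox4 flanking region, H3K4me2, chr13:29050556-29050855: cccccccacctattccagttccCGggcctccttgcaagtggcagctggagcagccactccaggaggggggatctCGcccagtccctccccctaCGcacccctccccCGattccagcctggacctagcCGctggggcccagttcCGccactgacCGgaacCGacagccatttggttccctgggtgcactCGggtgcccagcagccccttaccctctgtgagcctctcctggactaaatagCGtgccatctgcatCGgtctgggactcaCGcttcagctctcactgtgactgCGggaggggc
Sgca flanking region, H3K4me2, chr11:94840386-94840685: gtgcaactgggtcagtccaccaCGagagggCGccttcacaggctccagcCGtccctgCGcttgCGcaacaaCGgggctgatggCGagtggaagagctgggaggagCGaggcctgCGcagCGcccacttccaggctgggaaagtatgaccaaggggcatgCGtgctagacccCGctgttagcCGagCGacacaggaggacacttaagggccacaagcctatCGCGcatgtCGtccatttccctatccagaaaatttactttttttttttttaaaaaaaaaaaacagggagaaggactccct
Cdkn1b flanking region, H3K4me2, chr6:134866496-134866795: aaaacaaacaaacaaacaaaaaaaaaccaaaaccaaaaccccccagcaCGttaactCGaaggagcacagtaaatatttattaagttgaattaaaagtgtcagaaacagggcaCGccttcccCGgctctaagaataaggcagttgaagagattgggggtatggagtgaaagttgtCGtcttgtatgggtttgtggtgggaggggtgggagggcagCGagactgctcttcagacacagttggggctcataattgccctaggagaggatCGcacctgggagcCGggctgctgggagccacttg
Tnni1 flanking region, H3K4me1, chr1:137690876-137691175: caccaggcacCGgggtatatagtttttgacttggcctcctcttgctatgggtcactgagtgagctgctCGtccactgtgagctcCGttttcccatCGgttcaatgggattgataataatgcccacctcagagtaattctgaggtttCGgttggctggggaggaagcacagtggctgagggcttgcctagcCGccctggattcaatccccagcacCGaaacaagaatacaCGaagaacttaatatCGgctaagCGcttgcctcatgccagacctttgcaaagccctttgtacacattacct
Myl2 flanking region, H3K4me1, chr5:122548466-122548765: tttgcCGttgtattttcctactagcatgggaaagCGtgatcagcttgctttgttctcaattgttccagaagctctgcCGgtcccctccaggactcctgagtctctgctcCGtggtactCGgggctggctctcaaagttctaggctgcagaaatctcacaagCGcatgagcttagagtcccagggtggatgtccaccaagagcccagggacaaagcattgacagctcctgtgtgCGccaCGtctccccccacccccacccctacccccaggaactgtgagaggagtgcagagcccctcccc
Nudt3 flanking region, H3K4me1 and H3K4me2, chr17:27740306-27740605: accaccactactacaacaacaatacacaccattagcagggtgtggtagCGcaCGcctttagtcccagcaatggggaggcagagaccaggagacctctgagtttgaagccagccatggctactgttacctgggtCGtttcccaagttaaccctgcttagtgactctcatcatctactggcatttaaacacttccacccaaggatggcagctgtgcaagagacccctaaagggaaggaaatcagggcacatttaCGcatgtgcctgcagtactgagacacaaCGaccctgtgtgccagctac
These windows held 13, 17, 8, 10, 8 and 5 CpG dinucleotides, in the order printed, and none overlapped an annotated exon.

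Each mark was called lower at a small share of promoter-flanking regions. Decreased H3K4me1 was called at 253 of 11134 members (2.27%, interval 2.01 to 2.57). It was called at 0.761% of all merged regions and 1.91% (1.82 to 2.01) of those in the width range. Decreased H3K4me2 was called at 195 (1.75%, 1.52 to 2.01), against 1.87% of all merged regions and 5.32% (5.16 to 5.47) of those in the width range. Only 7 members were in both lists (0.0629%, 0.0305 to 0.13), beside 0.0479% of all merged regions and 0.0575% of those in the width range.

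Regions of the same width with a TSS inside gave the opposite balance between the marks. Among these, 173 of 15198 (1.14%, 0.982 to 1.32) were in the H3K4me1 list and 3345 (22.0%, 21.4 to 22.7) in the H3K4me2 list. Flanking regions were therefore 20.3 points below TSS-holding regions for H3K4me2 (interval of the difference -21.0 to -19.6) and 1.13 points above them for H3K4me1 (0.816 to 1.47). TSS-holding regions were wider. Set to the widths of the flanking regions, the H3K4me2 difference was -11.1 points and the H3K4me1 difference 1.28 points.

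Flanking regions differed much less from regions with no TSS within 5 kb, of which 1106 of 53690 (2.06%) were in the H3K4me1 list and 715 (1.33%) in the H3K4me2 list. The H3K4me1 share of flanking regions was 0.212 points higher (-0.0763 to 0.528), an interval that holds 0, and the H3K4me2 share was 0.42 points higher (0.171 to 0.697). In the plot of share by width, TSS-holding regions had the highest H3K4me2 share in every width class. From the narrowest class (under 1500 bp) to the widest (6000 bp or more), the share of flanking regions in the H3K4me1 list went from 0.972% to 9.91%, and that in the H3K4me2 list from 0.927% to 5.6%. In TSS-holding regions the H3K4me2 share went from 3.97% to 34.5% over the same classes.

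**Figure D1:**
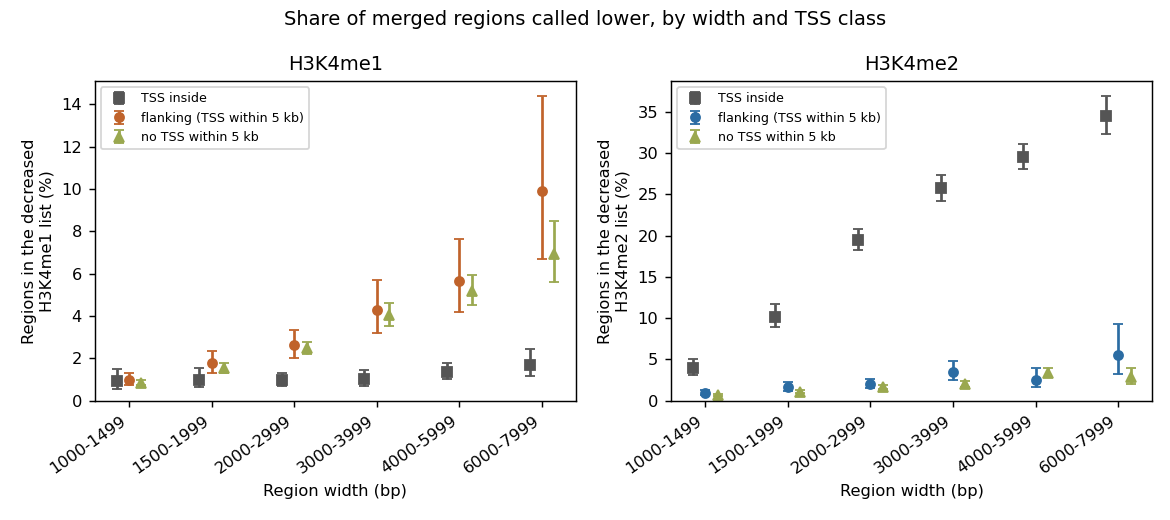
Share of merged regions in the decreased H3K4me1 list (left) and H3K4me2 list (right), in percent, against region width in bp. Squares are regions with a TSS inside, circles flanking regions, triangles regions with no TSS within 5 kb, and bars are 95% Wilson intervals. For H3K4me2 the TSS-holding regions lie above both other classes at every width, reaching 34.5% where flanking regions reach 5.6%.

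The width and distance limits that define the members cut through gradual changes. Of 1225 regions up to 100 bp narrower than the lower width limit, 8 were in each list, and of 1109 members within 100 bp above it, 3 were in the H3K4me1 list and 8 in the H3K4me2 list. Of 95 members within 1000 bp of the upper width limit, 9 and 8 were called, and of 82 regions up to 2000 bp wider than it, 6 and 4. Of 1086 members within 500 bp of the distance limit, 22 and 24 were called, and of 1134 regions up to 500 bp beyond it, 30 and 22.

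To determine if called loss was on one side of the promoter, members upstream and downstream of the nearest TSS were compared. Decreased H3K4me1 was called at 118 upstream members (2.19%, 1.83 to 2.62) and 135 downstream members (2.35%, 1.99 to 2.78), a difference of -0.161 points (-0.717 to 0.397). Decreased H3K4me2 was called at 99 upstream (1.84%) and 96 downstream members (1.67%), a difference of 0.165 points (-0.324 to 0.661). Both intervals hold 0. With TSS of protein-coding transcripts only (6751 members), the H3K4me2 difference was 0.8 points (0.0898 to 1.53), and with the distance limit set to 10 kb (20449 regions) it was 0.382 points (0.0268 to 0.745), both with the higher share upstream. Of the 7 members in both lists, 6 were downstream and 1 was upstream.

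At 923 TSS there was a member on each side. Decreased H3K4me1 was called on the upstream side at 30 of them, on the downstream side at 27 and on both at 4. Decreased H3K4me2 was called on the upstream side at 4, on the downstream side at 14 and on both at 1.

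Shares were also taken by distance from the TSS, and the trends of the marks were not tested against each other. The share of members with decreased H3K4me2 was 1.23% (22 of 1795, 0.811 to 1.85) within 1000 bp and 1.4%, 1.65%, 1.85% and 2.51% (57 of 2275, 1.94 to 3.23) over the next 4 classes of 1000 bp each. Beyond the limit it was 1.93% at 5 to 6 kb and 1.28% at 8 to 10 kb. For H3K4me1 the shares over the 5 classes were 2.51%, 2.49%, 2.52%, 2.18% and 1.71%, followed by 2.07% at 5 to 6 kb and 2.81% at 8 to 10 kb. Split by side, the lowest H3K4me2 share was next to the TSS upstream, with 7 of 871 members (0.804%, 0.39 to 1.65). In the plot of share by distance the interval of that class overlaps those of all others except the farthest upstream. The distance classes differed in the kind of TSS. Within 1000 bp, 1658 of 1795 members were beside a TSS in no merged region, against 913 of 2275 at 4 to 5 kb. Beside such TSS the H3K4me2 share was 1.27% in the nearest class and 2.41% in the farthest. Beside a TSS in a merged region it was 0.73% (1 of 137) and 2.57% (35 of 1362). The nearest class thus says little about flanks of marked promoters.

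**Figure D2:**
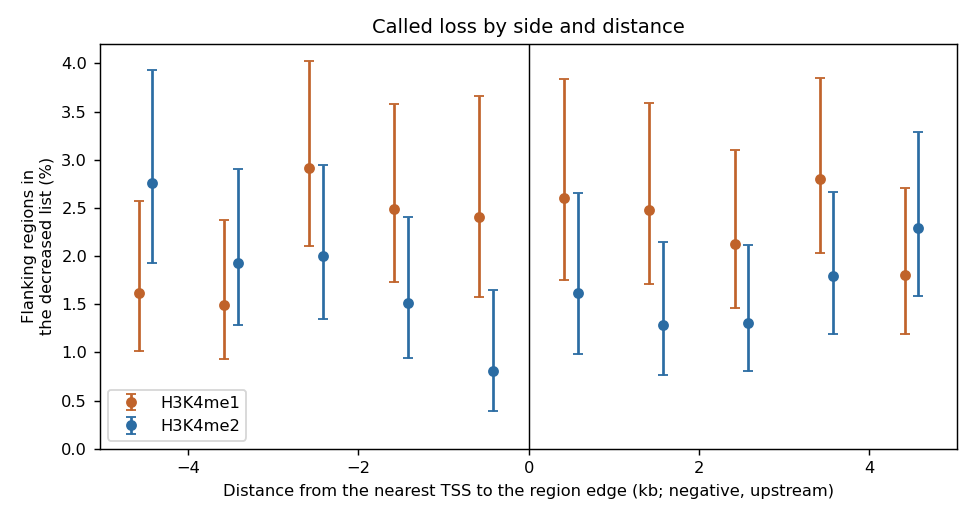
Share of flanking regions in each decreased list, in percent, against the distance from the nearest TSS to the edge of the region in kb, in classes of 1000 bp with upstream classes at negative values. Points are H3K4me1 (orange) and H3K4me2 (blue), bars are 95% Wilson intervals. The upstream and downstream sides overlap, and H3K4me2 runs from 0.804% next to the TSS upstream to 2.76% in the farthest upstream class.

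To determine if a flanking region followed the promoter beside it, members were divided by the state of the region over the nearest TSS. Where the TSS region had decreased H3K4me2, 24 of 856 flanking regions (2.8%, 1.89 to 4.14) also had decreased H3K4me2. Where the TSS region was in neither list, 78 of 4200 (1.86%) did, a difference of 0.947 points whose interval holds 0 (-0.0728 to 2.33). With the distance limit set to 10 kb it was 0.961 points (0.29 to 1.77). Where the TSS was in no merged region, 93 of 5988 (1.55%) did, -0.304 points from flanks of TSS regions in neither list (-0.84 to 0.2). With only TSS regions of 1000 bp or more counted, this difference was -0.618 points (-1.2 to -0.0932). Members beside a TSS in no merged region also lay closer to it (median 2040 bp) than those beside a TSS in one (3150 bp).

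Decreased H3K4me1 over a TSS was rarer, and the flank was more often called with it. Of 97 members beside a TSS region with decreased H3K4me1, 8 had decreased H3K4me1 (8.25%, 4.24 to 15.4), against 97 of 4200 (2.31%) beside a TSS region in neither list. The difference was 5.94 points (1.9 to 13.1) and rests on those 8 members. At equal widths it was 3.39 points. With the distance limit set to 10 kb it was 5.35 points (2.4 to 9.77), and with 2 kb it was -2.19 points with an interval too wide to read a direction (-3.32 to 15.4). Decreased H3K4me1 was called at 11 of 856 members (1.29%, 0.719 to 2.29) beside a TSS region with decreased H3K4me2, and at 138 of 5988 (2.3%) beside an unmarked TSS.

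**Figure D3:**
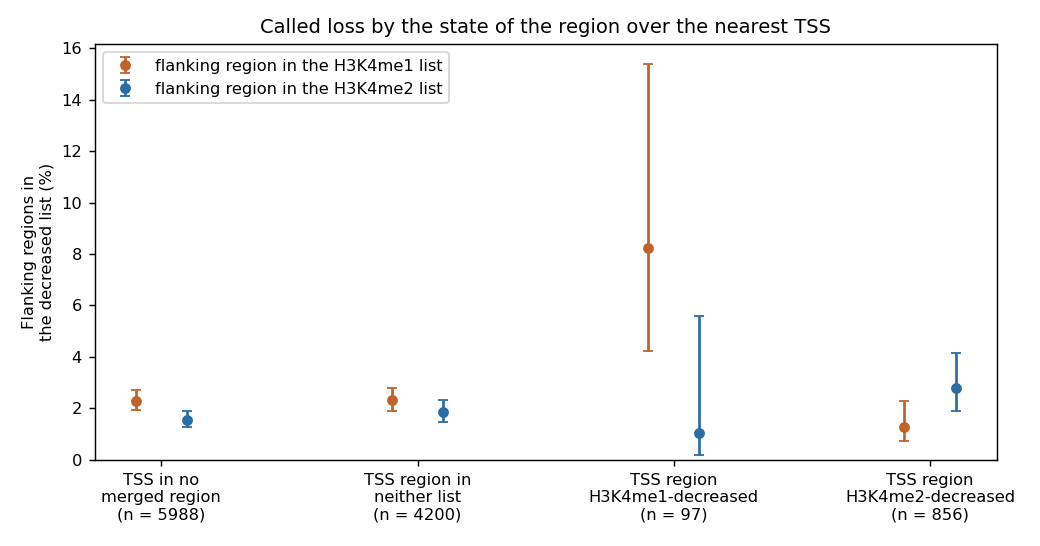
Share of flanking regions in the decreased H3K4me1 list (orange) and H3K4me2 list (blue), in percent, by the state of the merged region over the nearest TSS, with the number of flanking regions under each state and 95% Wilson intervals. The 7 members beside a TSS region in both lists are counted in each of the last 2 states. The H3K4me1 share of 8.25% beside an H3K4me1-decreased TSS region has the widest interval.

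Set side by side within a pair, the promoter carried most of the H3K4me2 calls and the flank did not. Among the 5146 members whose TSS lay in a merged region, 102 (1.98%, 1.64 to 2.4) had decreased H3K4me2, whereas the TSS region did in 856 pairs (16.6%, 15.6 to 17.7), with both called in 24. For H3K4me1 the counts were 115 members (2.23%) and 97 TSS regions (1.88%), with both called in 8. Where the TSS region was narrower than its flank (1584 pairs), decreased H3K4me2 was called at 35 flanks (2.21%, 1.59 to 3.06) and 74 TSS regions (4.67%, 3.74 to 5.83), and decreased H3K4me1 at 49 flanks (3.09%, 2.35 to 4.07) and 18 TSS regions (1.14%, 0.72 to 1.79). These 1584 pairs were selected on width, with medians of 2440 bp for flanks and 1240 bp for TSS regions. For both marks, shares were higher in the widest class of regions than in the narrowest. Some TSS regions had several flanks and recur in the counts of pairs, since 5146 pairs held 4574 different TSS regions.

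The marks also fell at different kinds of flank with respect to the gene. Among members whose nearest TSS was protein-coding, decreased H3K4me2 was called at 90 of 3053 (2.95%, 2.4 to 3.61) beside the outermost TSS of the gene. It was called at 51 of 4993 (1.02%, 0.778 to 1.34) beside an internal TSS, meaning any other annotated TSS of the gene. Decreased H3K4me1 showed the reverse order, with 48 (1.57%, 1.19 to 2.08) beside the outermost TSS and 141 (2.82%, 2.4 to 3.32) beside an internal one. The differences were 1.93 points for H3K4me2 (1.3 to 2.63) and -1.25 points for H3K4me1 (-1.88 to -0.591), and were 1.99 and -1.18 points at equal widths. With the distance limit set to 2 kb they were 1.04 points for H3K4me2 (0.0864 to 2.32) and -0.973 points for H3K4me1. The latter interval holds 0 (-2.13 to 0.424). All 7 members in both lists were beside an internal TSS. The outermost TSS lay in a merged region for 2094 of the 3053 members, and the internal TSS for 2184 of the 4993.

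By gene context, H3K4me2 calls were most frequent outside genes. Of 2920 intergenic members, 98 had decreased H3K4me2 (3.36%, 2.76 to 4.07), compared with 54 of 4861 members that overlapped a gene in introns only (1.11%) and 43 of 3353 that held exon sequence (1.28%). The intergenic share exceeded the intronic share by 2.25 points (1.56 to 3.01). Intergenic members thus made up 50.3% of the H3K4me2 calls and 26.2% of all members. H3K4me1 was called at 53 intergenic (1.82%), 116 intronic (2.39%) and 84 exonic members (2.51%), and its intergenic minus intronic difference of -0.571 points had an interval that holds 0 (-1.2 to 0.106). With the distance limit set to 10 kb it was -0.74 points (-1.2 to -0.26), without members between TSS of opposite sides -0.816 points (-1.47 to -0.124), and with 2 kb 0.36 points (-0.792 to 1.74). Context and TSS rank overlapped. Of the 3053 members beside an outermost coding TSS 1672 were intergenic, and 4888 of the 4993 beside an internal one were not. Among members that were not intergenic, the outermost minus internal difference was 0.953 points for H3K4me2 (0.265 to 1.86) and -1.52 points for H3K4me1 (-2.21 to -0.658). Beside outermost TSS, the intergenic minus intronic difference was 2.05 points (0.556 to 3.31) and 0.509 points (-0.75 to 1.48), respectively.

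CpG content separated the marks most. It was measured over the whole region as the number of CpG dinucleotides observed over that expected from the C and G content, which is low in bulk DNA and high in CpG islands. The median ratio was 0.216 for flanking regions, 0.213 for regions with no TSS within 5 kb and 0.446 for TSS-holding regions. It was 0.325 (quartiles 0.221 and 0.459) for members with decreased H3K4me2 and 0.208 (0.165 and 0.246) for members with decreased H3K4me1, against 0.216 for members in neither list.

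Of 780 members with a ratio of 0.4 or more, 64 had decreased H3K4me2 (8.21%, 6.48 to 10.3) and 3 had decreased H3K4me1 (0.385%, 0.131 to 1.12). Of the 10354 members below 0.4, 131 (1.27%) and 250 (2.41%) did. The difference between these classes was 6.94 points for H3K4me2 (5.2 to 9.09) and -2.03 points for H3K4me1 (-2.43 to -1.24), and 7.85 and -2.03 points at equal widths. None of the 172 members with a ratio of 0.6 or more was in the H3K4me1 list, for which the interval reaches 2.18%. High-CpG regions with no TSS within 5 kb had nearly the same H3K4me2 share as high-CpG flanking regions (184 of 2260, 8.14%, 7.08 to 9.34), and high-CpG regions with a TSS inside had a higher one (2793 of 9112, 30.7%, 29.7 to 31.6).

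Context and CpG content were seen together in the H3K4me2 calls. Among members with a ratio of 0.4 or more, decreased H3K4me2 was called at 43 of 273 intergenic members (15.8%, 11.9 to 20.5), 18 of 374 with exon sequence (4.81%, 3.07 to 7.48) and 3 of 133 intronic members (2.26%, 0.77 to 6.42). Below 0.4, the intergenic minus intronic difference was 0.999 points (0.414 to 1.67) and the outermost minus internal difference was 0.922 points (0.387 to 1.54). Both orders were thus also present in CpG-poor flanks, at smaller sizes. Transcripts absent from the annotation used here were not considered.

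Median GC content was 50.7% for members with decreased H3K4me1, 47.8% for those with decreased H3K4me2 and 47.0% for members in neither list. The H3K4me1 share was 0.128% below 40% GC, 0.711% at 40 to 45%, 2.01% at 45 to 50%, 4.97% (125 of 2517, 4.18 to 5.89) at 50 to 55% and 3.04% (23 of 757, 2.03 to 4.52) above that. The H3K4me2 share was 1.54%, 1.12%, 2.06%, 1.83% and 2.51% in the same classes. GC content also influences the recovery of fragments in sequencing, and its part in these calls was not tested.

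**Figure D4:**
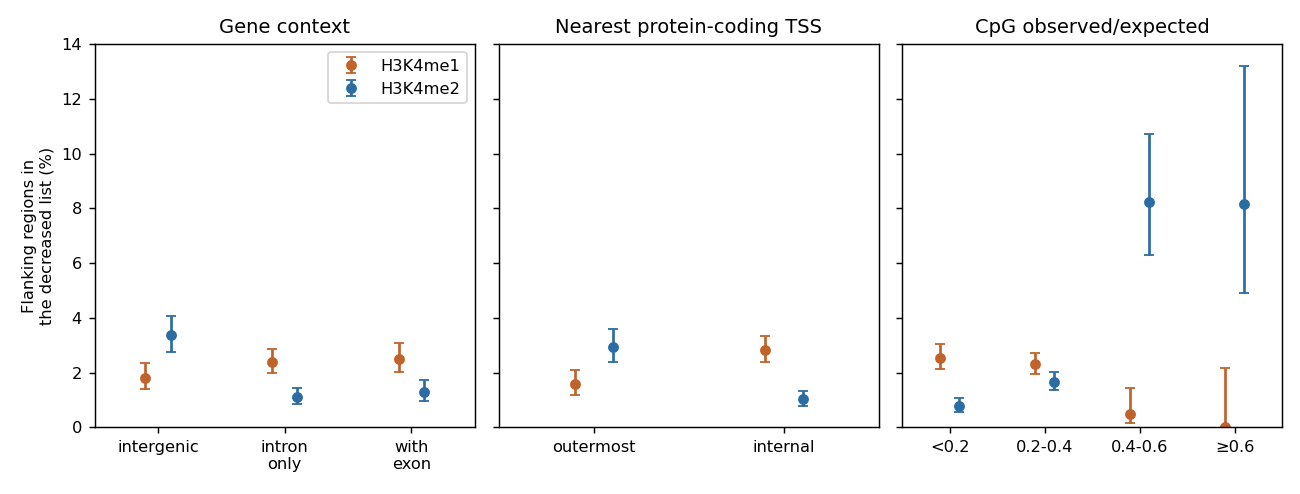
Share of flanking regions in the decreased H3K4me1 list (orange) and H3K4me2 list (blue), in percent, by gene context (left), by whether the nearest protein-coding TSS is the outermost of its gene (middle) and by the ratio of observed to expected CpG (right), with 95% Wilson intervals. H3K4me2 lies above H3K4me1 in intergenic flanks, beside outermost TSS and at CpG ratios of 0.4 or more, where its share is 8.21%.

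Short sequence motifs were counted on both strands of the middle 300 bases. The GC box GGGCGG, bound by SP and KLF factors, was in 43 of 195 members with decreased H3K4me2 (22.1%, 16.8 to 28.4), 16 of 253 with decreased H3K4me1 (6.32%) and 7.37% of members in neither list. It was in 10.2% of all 80022 regions of this width and in 27.5% of those with a TSS inside, and it contains a CpG itself. The GATA motif AGATAA was in 13.4% (9.78 to 18.2) and 15.9% (11.4 to 21.7) of members with decreased H3K4me1 and H3K4me2, against 19.4% of those in neither list and 18.6% of all regions. The TEAD motif GGAATG was in 17.0% and 14.4%, against 17.2% of all regions, and the T-box motif AGGTGT in 13.0% and 16.4%, against 14.7%. The NKX2-5 motif TNAAGTG was in 15% and 13.8%, against 16.3% of all regions, and the E-box CANNTG in 83.8% and 76.4%, against 79.6%. The MEF2 motif CTAAAAATA was in 1.58% of members with decreased H3K4me1 and in 0 of 195 with decreased H3K4me2 (up to 1.93%), against 1.04%. These motifs can overlap one another, and a match does not show that a factor binds.

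Gene lists were read against the shares of all members, 2.27% for H3K4me1 and 1.75% for H3K4me2. Of 30 sarcomere genes, 14 had a total of 18 flanking regions, of which 2 had decreased H3K4me1 and 0 decreased H3K4me2. One was 2034 bp upstream of an internal TSS of *Tnni1*, the troponin I of the embryonic heart (chr1:137688106-137693945, 5840 bp, intronic). The other was 1755 bp upstream of *Myl2*, the ventricular regulatory light chain of myosin (chr5:122548026-122549205, 1180 bp, intergenic). At *Myl2* the region over the TSS, 9520 bp wide and 1040 bp from the flank, was in the H3K4me2 list, so promoter and upstream flank of this gene differed in the mark called. At *Tnni1* the TSS region of 11480 bp was in neither list.

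Of 37 ion transport genes, 19 had 36 flanking regions, of which 1 had decreased H3K4me1 and 0 decreased H3K4me2. It lay in an intron of *Cacna1c*, the pore subunit of the L-type calcium channel, 2864 bp upstream of an internal TSS in no merged region (chr6:118733206-118735825). Of 30 hypoxia and antioxidant genes, 13 had 19 members, and 1 of these had decreased H3K4me1. It was an intronic region 934 bp upstream of an internal TSS of the glycolytic enzyme gene *Pfkp* (chr13:6589146-6591605). None of the 15 flanking regions of 9 cardiac transcription factor genes was in either list.

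Cell cycle genes had decreased H3K4me2 in 2 of 11 flanking regions and decreased H3K4me1 in 0, where 1.75% and 2.27% of all members were called. One was 2114 bp upstream of *Cdkn1b*, which encodes an inhibitor of cyclin-dependent kinases (chr6:134864986-134868305, 3320 bp). The TSS region of *Cdkn1b*, 12660 bp wide, was also in the H3K4me2 list. The other was 2984 bp upstream of *Mki67*, the gene of the proliferation antigen Ki-67 (chr7:142911046-142915765, 4720 bp), where the TSS region of 8220 bp was in neither list. Both flanks were intergenic.

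*Sgca*, which encodes alpha-sarcoglycan of the muscle membrane, was the only gene with a called flank among 14 genes that the study singles out. That list was chosen by the study on these samples and is no independent evidence of direction. Its flank of 3460 bp (chr11:94838806-94842265) began 1165 bp upstream of the TSS and was in the H3K4me2 list, and the region over the TSS (4560 bp, 900 bp away) was in both lists. It was the only H3K4me2-decreased member beside a TSS region in both lists, of 7 such members.

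Flanks of genes of other heart cell types and of ribosomal protein genes were present and were not called. There were 25 members beside 14 endocardial and endothelial genes, 7 beside 6 epicardial and mesenchymal genes, 5 beside 4 erythroid genes and 5 beside 4 ribosomal protein genes, with 0 in either list. At the shares of all members, fewer than 1 call per mark would be counted in each of these lists. The same holds for the lists above in which flanks were called, so no difference between lists can be read from these counts.

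**Figure D5:**
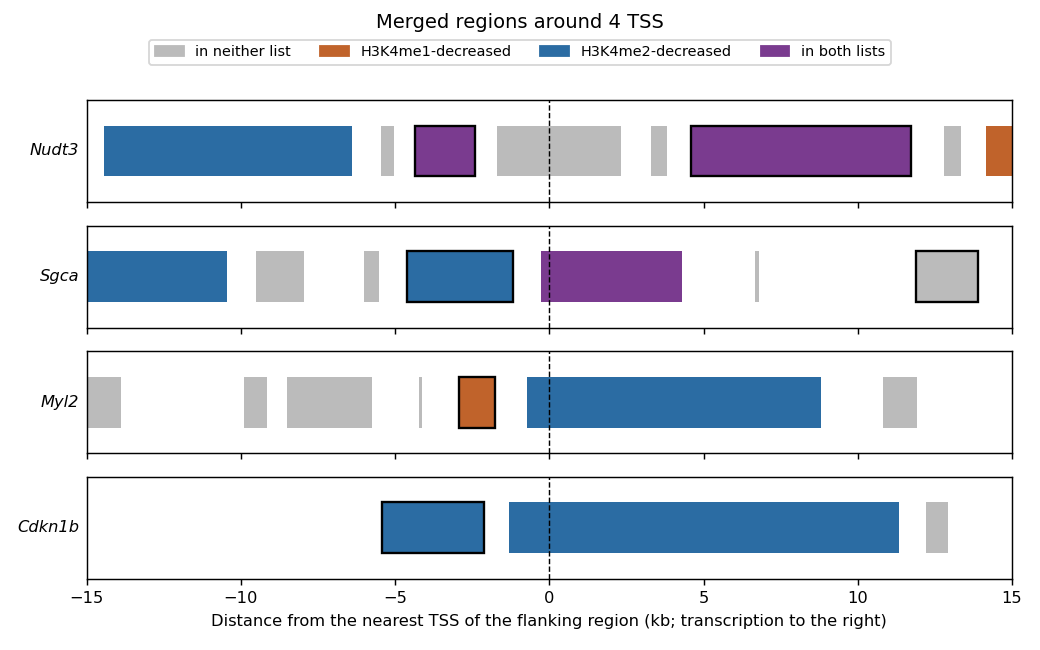
Merged regions within 15 kb of the nearest TSS of 4 called flanking regions, at *Nudt3* (internal TSS), *Sgca*, *Myl2* and *Cdkn1b*, with distance from the TSS in kb and transcription to the right. Grey regions are in neither list, orange in the H3K4me1 list, blue in the H3K4me2 list and purple in both, black outlines are flanking regions, and regions that run past 15 kb are drawn to the edge. *Nudt3* has purple flanks on either side of a grey TSS region, whereas *Myl2* has an orange flank beside a blue TSS region.

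*Nudt3*, which encodes a phosphatase of diphosphoinositol polyphosphates, stood out among the 7 members in both lists because it held 2 of them at the same TSS. This internal TSS (chr17, position 27748615, minus strand) lay in a region of 4020 bp that was in neither list. One flank began 4590 bp downstream (chr17:27736886-27744025, 7140 bp), and the other 2411 bp upstream (chr17:27751026-27752985, 1960 bp), 2260 bp and 720 bp from the TSS region. A further intronic flank of *Nudt3*, 3002 bp upstream of another internal TSS (chr17:27723266-27730185, 6920 bp), had decreased H3K4me1.

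The other 5 members in both lists were all downstream of an internal TSS. They were at *Tdp1*, a DNA repair enzyme gene (chr12:101155126-101157225, 2910 bp from the TSS), *Gfra2*, a co-receptor of the GDNF family (chr14:71319106-71321185, 2344 bp), *Itgb5*, an integrin beta subunit gene (chr16:33926106-33930345, 3534 bp), *Gpr107* (chr2:31055446-31059065, 3030 bp) and *Pstpip1*, a cytoskeletal adaptor gene (chr9:55971386-55975245, 524 bp). The nearest TSS of *Itgb5* lay in a merged region in neither list, and the others in no merged region. Their CpG ratios ran from 0.099 at *Gfra2* to 0.219 at *Pstpip1*, and those of the *Nudt3* pair were 0.252 and 0.246. A second *Gpr107* flank, 50 bp downstream of the same TSS (chr2:31052466-31054465), had decreased H3K4me1 alone.

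Besides *Nudt3*, called flanks lay on either side of 4 TSS. At an internal TSS of *Kat2b*, a histone acetyltransferase gene, the upstream flank had decreased H3K4me1 (chr17:53716086-53720545) and the downstream flank decreased H3K4me2 (chr17:53725386-53728025), around a TSS region of 1060 bp in neither list. At *Sema4b*, a semaphorin gene, flanks 4322 bp upstream and 3839 bp downstream had decreased H3K4me1, and the TSS region of 5040 bp between them was in neither list. *Mtap7d1*, of a microtubule-associated protein family, had decreased H3K4me1 1651 bp upstream and 1110 bp downstream of an unmarked internal TSS. The same was seen 2925 bp upstream and 796 bp downstream of the unmarked TSS of *AL607145.1*, annotated as a microRNA gene. Both of these flanks were intronic to *Casz1*, a zinc-finger transcription factor gene active in the heart.

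The widest called flanks beside protein-coding TSS were taken by mark and side. Upstream, those with decreased H3K4me1 included *Coro2b*, a coronin gene (6980 bp), and *Nudt3* (6920 bp), and downstream they were at *Abr* (7260 bp), *Nudt3* (7140 bp) and *Ppil1*, a spliceosomal isomerase gene (7140 bp). The TSS region beside *Ppil1* was in the H3K4me2 list. The widest with decreased H3K4me2 upstream were at *Gm8973* (7240 bp), *Pth1r*, a parathyroid hormone receptor gene (6740 bp), and *Lrrc16a*, an actin-capping regulator (5480 bp). Downstream they were at *Stk10*, a protein kinase gene (7160 bp), *Nudt3* (7140 bp) and *Arfgap3*, a Golgi GTPase-activating protein gene (6940 bp). Of these, *Stk10* had a TSS region in the H3K4me2 list, 640 bp from the flank.

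Genes named in the next 2 paragraphs were chosen after their values were seen. At 11 TSS regions with decreased H3K4me2, a flank had decreased H3K4me1, and 1 of these TSS regions was in both lists. Among them, beside *Myl2* and *Ppil1*, were *Nexn*, a Z-disc protein gene (6060 bp, 2022 bp upstream), and *Cacna1a*, a neuronal calcium channel gene (3280 bp, 2225 bp upstream). *Qk*, an RNA-binding protein gene (5780 bp, 4272 bp upstream), *Dnajb5*, a co-chaperone gene (2800 bp, 4720 bp downstream), and *Irf5*, an interferon regulatory factor gene (2240 bp, 1920 bp upstream), were also among them. In these 5 cases the gap between flank and TSS region was 700 to 1140 bp. Beside TSS regions with decreased H3K4me1, the flank was also in the H3K4me1 list at *Casz1* (3320 bp, 3033 bp upstream), *Akap6*, a kinase anchoring protein gene of muscle (1600 bp, 3263 bp downstream), and *Sipa1l2* (3380 bp, 2525 bp downstream).

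The H3K4me2-decreased flanks beside H3K4me2-decreased TSS regions included *Sox4*, a transcription factor gene (chr13:29049026-29052385, 3444 bp upstream, CpG ratio 0.536), and *Gclc*, of glutathione synthesis (3860 bp, 2497 bp upstream, 0.496). *Psma3* and *Psmc1*, both proteasome subunit genes, had such flanks 3463 bp and 2891 bp upstream (0.515 and 0.439). *Hist1h2bl*, a histone H2B gene in a histone cluster, had one 4227 bp downstream (0.746). Of the 14 H3K4me2-decreased members with a ratio of 0.6 or more, *Foxa1* (0.678), *Nudt11* (0.628) and *Lor* (0.675) held exon sequence of the gene itself.

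Called flanks also had called neighbours. Another H3K4me1-decreased region lay within 10 kb of 61 of the 253 H3K4me1-decreased members (24.1%), against 5.28% of the other members. For H3K4me2 these values were 49 of 195 (25.1%) and 16.2%. Neighbouring calls are not independent of one another, and the intervals above do not allow for this.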

How the data were processed

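H3K4me1, H3K4me2, H3K4me3 and input ChIP-Seq libraries came from 24 of the 27 libraries of the series, in groups of 3 replicates taken from the sample titles. The authors merged peaks over marks and replicates and listed the regions lower in mutants, at a false discovery rate that the study gives as 0.1. The deposited H3K4me2 list is longer than the count in the study's text, so its threshold is uncertain. The submitters' processing notes name the build mm9 and CASAVA 1.8.2, FastQC, Bowtie2, Bowtie and SAMtools. The peak caller was not given in the sources used here. The 3 deposited lists hold coordinates only, so no test between genotypes could be run and depth per library is unknown. ChIP-Exo libraries were not analysed here.

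All 2730 H3K4me1-decreased and 6699 H3K4me2-decreased regions matched a merged region exactly. All 21 chromosomes fitted NCBIM37, and TSS came from GENCODE vM1 (86879 positions). The nearest TSS was taken by region edge, with ties to coding genes, then the lower coordinate. Shares used Wilson and Newcombe intervals (Python 3.11.15, NumPy 2.4.6, pandas 2.3.3, matplotlib 3.10.9), tested on simulated data. Differences at equal widths weight width classes by the members'. Named genes were those of members in both lists, the 3 widest per list and side at coding TSS, TSS called on each side, and listed genes. A gene chosen by this rule is not reported here. Members, lists and rule were chosen with earlier results of these data known. Comparisons by gene context, TSS rank, CpG and GC content were added after seeing the data. Alternatives changed the width limits, the distance limit, the annotation and the overlap.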

Additional observations from a re-analysis of the deposited data

How the results depend on the processing

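Of 136 alternative values for 15 results, 112 stayed within the counting interval of the reported value and 23 moved outside it. The remaining 1 took the opposite sign to a reported difference whose interval excluded 0. Signs also changed for some differences whose reported interval holds 0, and those values are counted among the 112 and the 23. With a smallest width of 500 bp, the H3K4me1 and H3K4me2 shares of flanking regions were 1.35% and 1.07%. With a smallest width of 2000 bp they were 3.92% and 2.65%, the share in both lists was 0.141%, and the upstream minus downstream difference for H3K4me2 was -0.366 points. With a TSS within 2 kb, the H3K4me2 share was 1.32% and the share in both lists 0.025%. In that setting the H3K4me1 difference between flanks of H3K4me1-decreased and uncalled TSS regions changed sign to -2.19 points, with an interval that holds 0 (-3.32 to 15.4), and the H3K4me2 counterpart was -0.121 points (-1.51 to 5.34). With TSS of protein-coding transcripts only (6751 members), the H3K4me2 share was 2.25%, the share in both lists 0.0296%, and the upstream minus downstream difference for H3K4me2 was 0.8 points (0.0898 to 1.53). The lower shares in narrower regions follow from the added regions, and for the other changes the cause was not tested. The differences by gene context, TSS rank and CpG content for H3K4me2 kept their direction under every alternative run, with values from 0.911 to 2.52 points (outermost minus internal TSS), 1.22 to 3.23 points (intergenic minus intronic) and 3.78 to 10.4 points (CpG ratio of 0.4 or more minus lower). Overlap of 1 bp in place of identical coordinates could change no value, given the exact matches, and its values are counted among the 112. No paired analysis was possible because the lists hold no value per library, and for the same reason no replicate could be left out.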
